A study of Mus musculus with 10 samples.

Results

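The immediate early genes Fos, Fosb, Jun, Junb, Jund, Egr1, Ier2, Atf3, Nr4a1 and Dusp1 were examined in RNA sequencing libraries of mouse brain microglia. They were taken by name, 10 of the 24453 gene symbols in the table, and all 10 had a row. Microglia, the resident macrophages of the brain, had been isolated from triturated brains of C57bl6 mice with magnetic beads, and 10 libraries were made. Aged libraries (n = 3) came from mice of 15 months and young libraries (n = 3) from mice of 10 weeks, both without a stated genetic change. Libraries labelled Rab7 deltaMG (n = 2), which the series names as null mutants of the late endosomal GTPase Rab7, and libraries labelled Rab7 Control (n = 2) came from mice of 3 months. All mice were untreated, per the labels. The labels do not say in which cells or with what driver Rab7 was deleted, what the controls carried, or whether a library was 1 animal or a pool. P-values therefore measure the spread between these libraries, which may be technical.

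Immediate early genes are transcribed within minutes of a stimulus without new protein synthesis, through kinase cascades that act on transcription factors already bound at their promoters. Fos family proteins pair with Jun family proteins through leucine zippers to form the AP-1 transcription factor. Egr1 and Nr4a1 encode a zinc finger factor and an orphan nuclear receptor, Atf3 a stress-responsive leucine zipper factor, and Ier2 a nuclear protein. Dusp1 is no transcription factor: it encodes a phosphatase that inactivates MAP kinases and so limits the same response. In brain macrophages these genes are known to be induced by injury, by cytokines and by tissue dissociation itself. Every library here came from isolated cells, and induction during isolation was not tested.

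The start sites of these genes are a shared point of control, so the sequence before them is shown for the 3 members with the highest log2 fold changes in both comparisons (Nr4a1, Dusp1 and Fos) and for Jun, whose values did not follow them. Each run holds the 250 bases upstream of the RefSeq start site on the GRCm38.p6 assembly, written 5′ to 3′ on the strand of the gene. Capitals mark TGACG, the core of the cAMP response element, on either strand (CGTCA where it lies on the other strand), and the full element TGACGTCA, which contains that core on both strands.
Nr4a1, chr15:101266596-101266845, plus strand: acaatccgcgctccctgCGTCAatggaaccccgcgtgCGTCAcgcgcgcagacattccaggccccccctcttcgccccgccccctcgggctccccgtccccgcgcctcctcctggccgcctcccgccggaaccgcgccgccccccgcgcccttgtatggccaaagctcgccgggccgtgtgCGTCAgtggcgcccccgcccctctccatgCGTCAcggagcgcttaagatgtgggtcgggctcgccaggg
Dusp1, chr17:26508473-26508722, minus strand: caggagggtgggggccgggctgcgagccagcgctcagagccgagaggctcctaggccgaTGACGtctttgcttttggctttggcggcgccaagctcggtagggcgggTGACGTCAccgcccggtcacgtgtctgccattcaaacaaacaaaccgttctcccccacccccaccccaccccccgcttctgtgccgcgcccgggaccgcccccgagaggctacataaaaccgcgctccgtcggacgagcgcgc
Fos, chr12:85473640-85473889, plus strand: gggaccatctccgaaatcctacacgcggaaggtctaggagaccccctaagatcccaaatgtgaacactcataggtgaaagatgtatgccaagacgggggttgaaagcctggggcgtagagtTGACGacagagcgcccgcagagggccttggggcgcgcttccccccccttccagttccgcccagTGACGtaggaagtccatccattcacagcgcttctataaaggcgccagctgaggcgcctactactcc
Jun, chr4:95052223-95052472, minus strand: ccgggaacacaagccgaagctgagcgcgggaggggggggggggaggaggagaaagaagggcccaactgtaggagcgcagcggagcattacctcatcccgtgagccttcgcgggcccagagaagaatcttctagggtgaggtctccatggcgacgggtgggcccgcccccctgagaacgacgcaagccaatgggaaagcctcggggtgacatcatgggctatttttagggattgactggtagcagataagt

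Among the 8 members found in the RefSeq promoter table (Ier2 and Egr1 had no entry), 6 held TGACG in these 250 bases: Fos, Fosb, Junb, Atf3, Nr4a1 and Dusp1. Of 32536 distinct windows of that length, 17.9% held it. Nr4a1 had 4 copies, between 233 and 36 bases before the start, and Fos had 2, between 129 and 62 bases before it. The full TGACGTCA was present in Dusp1 alone, 143 to 136 bases before the start, and in 1.56% of all windows. The AP-1 site TGANTCA (6.73% of all windows), the CArG box of serum response factor (1.48%) and the early growth response site GCGTGGGCG (0.541%) had no match in any of the 8. TATAAA was found in Fos (12.3% of all windows). All motifs were searched on both strands, and these matches describe letters only. A link between them and the changes was not tested. Fosb, Junb and Atf3, which held TGACG and are not printed, had log2 fold changes of 0.0068, 0.031 and 0.16 by age. By label theirs were -0.035, 0.30 and 0.31. The RefSeq window of Jund lies upstream of the gene's start in GENCODE M21. Those of Nr4a1, Dusp1 and Atf3 lie inside the gene as annotated there, downstream of its outermost start.

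Values were RPM, sequencing reads scaled by the authors to a common total. They implied 6098273 to 9907473 reads behind each library's scaling. Dusp1 thus rested on 851 to 2428 estimated reads per library, Nr4a1 on 92 to 293 and Ier2 on 21 to 65. The libraries carried microglial transcripts, with 10 markers (P2ry12, Tmem119, Cx3cr1 and others) summing to 3526 to 6010 RPM. Neuronal markers, for cells in which these genes are also known to be induced, summed to 0.595 to 6.16 RPM, and 5 of 7, Rbfox3 among them, stayed under 1 RPM in every library. Neutrophil markers were present in every library and summed to 449 to 4152 RPM. Rab7 did not check the labels: it was at 64.2 to 67.5 RPM in the libraries labelled control and at 72.2 to 79.4 RPM in those labelled deltaMG (log2 fold change 0.20, SE 0.20, limma adjusted p = 0.668), so these groups are named by their labels. Xist was at 1715 to 1771 RPM in young and at 0.127 to 0.940 RPM in aged libraries, so age cannot be told apart from sex. The libraries labelled control and deltaMG carried Xist (924 to 1562 RPM) and Y-linked transcripts (9.11 to 25.8 RPM) side by side, and the part of the sex mix in the results was not tested. Cx3cr1 was lowest under the control label, at 398 and 437 RPM, against 965 and 1285 under the deltaMG label (limma adjusted p = 1.6e-04). Aged libraries held 689 to 741 RPM of Cx3cr1 and young ones 1068 to 1174. By label, 3 of the 10 microglial markers were lower at an unadjusted p under 0.05. What the Cx3cr1 levels mean for the labels was not tested.

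Compared per kilobase of annotated exon, the members fell into a high and a low tier. Averaged over the 10 libraries, Jun stood at 84.5 RPM per kilobase, Dusp1 at 62.7, Egr1 at 48.6, Atf3 at 44.8 and Fos at 37.7. The lower tier held Junb at 12.1, Fosb at 7.82, Nr4a1 at 6.95, Jund at 4.90 and Ier2 at 3.52 RPM per kilobase. Between the tiers the ranges did not touch, with Fos at 24.4 or above and Junb at 15.9 or below in every library. All other neighbours in this order overlapped in range. Within libraries, Jun exceeded Dusp1 in 8 of 10, Dusp1 exceeded Egr1 in 9, Egr1 exceeded Atf3 in 8 and Atf3 exceeded Fos in 7, while Fosb exceeded Nr4a1 in 6. Jun, Egr1 and Dusp1 together made up 66.2% to 72.4% of the summed RPM of the members.

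**Figure D1:**
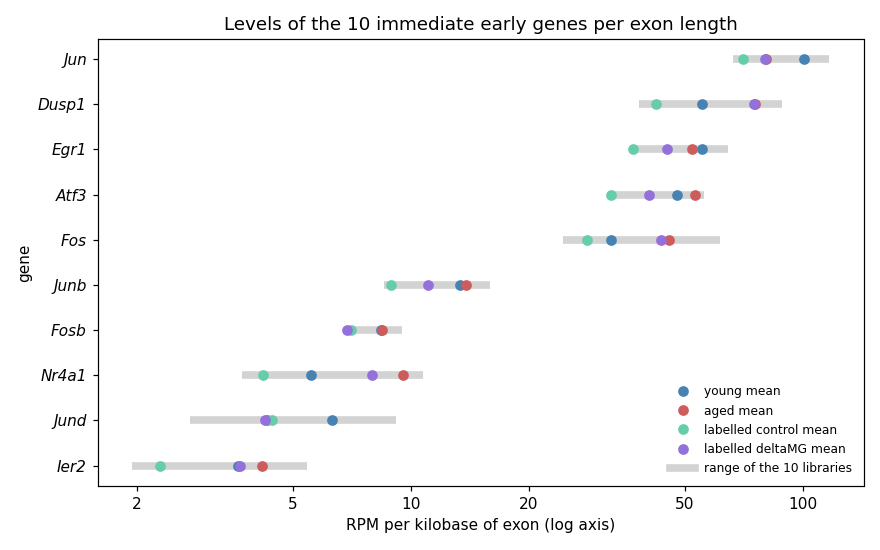
Level of each of the 10 immediate early genes in RPM per kilobase of annotated exon, on a log axis. Points are the means of the 4 groups and grey bars span the 10 libraries, with a gap between Fos (24.4 or above) and Junb (15.9 or below).

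The transcripts share a high GC content. In their longest annotated transcript it ran from 51.9% in Fos to 67.1% in Jund, against a median of 47.6% over 4020 tested genes annotated once. Fos had a higher GC content than 74.4% of those genes, Junb than 99.8%. Jund and Junb, with Ier2 at 60.9%, were also in the lower tier, and Fos and Atf3 (52.2%), in the upper tier, had the lowest GC content of the members. The order was not strict, since Egr1 (57.3%) in the upper tier lay above Fosb (56.0%) and Nr4a1 (57.0%) in the lower. The part of GC content in these levels was not tested. Jun overlaps Junos, Junb overlaps Prdx2 and Jund overlaps Gm11175 on the opposite strand in GENCODE M21. Atf3 overlaps Gm24748 in the same way, and Dusp1, whose annotated models span 56539 bases, overlaps Ergic1 and Gm8225 on the opposite strand and 2 further models on its own. No strand setting is given in the sources used here, so reads of these pairs cannot be told apart.

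Of the members, 9 were tested across all genes with limma. Ier2 stayed under the minimum of 10 RPM in all libraries and was not tested. Jund met it through 2 young libraries alone, the group in which it was highest, so its place among the tested genes depends on that group.

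Nr4a1, an orphan nuclear receptor that is induced in activated macrophages and restrains inflammatory transcription, was higher in aged than in young libraries. It was measured at 37.6, 25.3 and 37.2 RPM in aged replicates 1, 2 and 3 and at 17.3, 22.3 and 19.0 RPM in young replicates 1, 2 and 3. Every aged library lay above every young one. The means were 33.4 RPM ± 6.97 (SD, n = 3) and 19.5 RPM ± 2.53 (SD, n = 3), a 1.66-fold rise (log2 fold change 0.73, SE 0.17, limma adjusted p = 0.0251). The gene (ENSMUSG00000023034.7) lies on chromosome 15, 101254269 to 101274795, plus strand, GRCm38. Nr4a1 was the one member called, 1 of 9 tested, against 3.16% of the 4151 tested genes called higher in this direction. None of the 9 was called lower, against 2.99% of tested genes, and 1 was lower at an unadjusted p under 0.05; voom on estimated reads also called none lower. At that unadjusted level 3 of 9 members differed in either direction, against 21.5% of tested genes. The call was lost without aged replicate 1 (adjusted p = 0.0923), aged replicate 3 (0.0753), young replicate 1 (0.117) or young replicate 3 (0.0719), with no minimum level (0.0738) and with the ageing groups fitted alone (0.0653). It held without aged replicate 2 (0.00445) and without young replicate 2 (0.0330).

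Dusp1 and Fos had higher means in aged libraries, but neither passed the test. Dusp1 was at 210, 245 and 293 RPM in aged replicates 1 to 3 and at 148, 245 and 158 RPM in young replicates 1 to 3. Young replicate 2 reached the level of aged replicate 2, and the other 2 young libraries lay below all aged ones. The log2 fold change was 0.46 (95% interval 0.077 to 0.85, limma adjusted p = 0.145), and without young replicate 2 it was 0.69 with an adjusted p of 0.0328. Fos was at 116, 59.8 and 145 RPM in aged replicates 1 to 3 and at 73.3, 97.7 and 57.3 RPM in young replicates 1 to 3. Aged replicates 1 and 3 lay above all young libraries, whereas aged replicate 2 was close to the lowest of them. Its log2 fold change was 0.43 (95% interval -0.12 to 0.97, limma adjusted p = 0.370), and without aged replicate 2 it was 0.80 with an adjusted p of 0.0152. Fos varied more within groups than 95.2% of the tested genes, with a residual SD of 0.45 on the log2 scale.

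**Figure D2:**
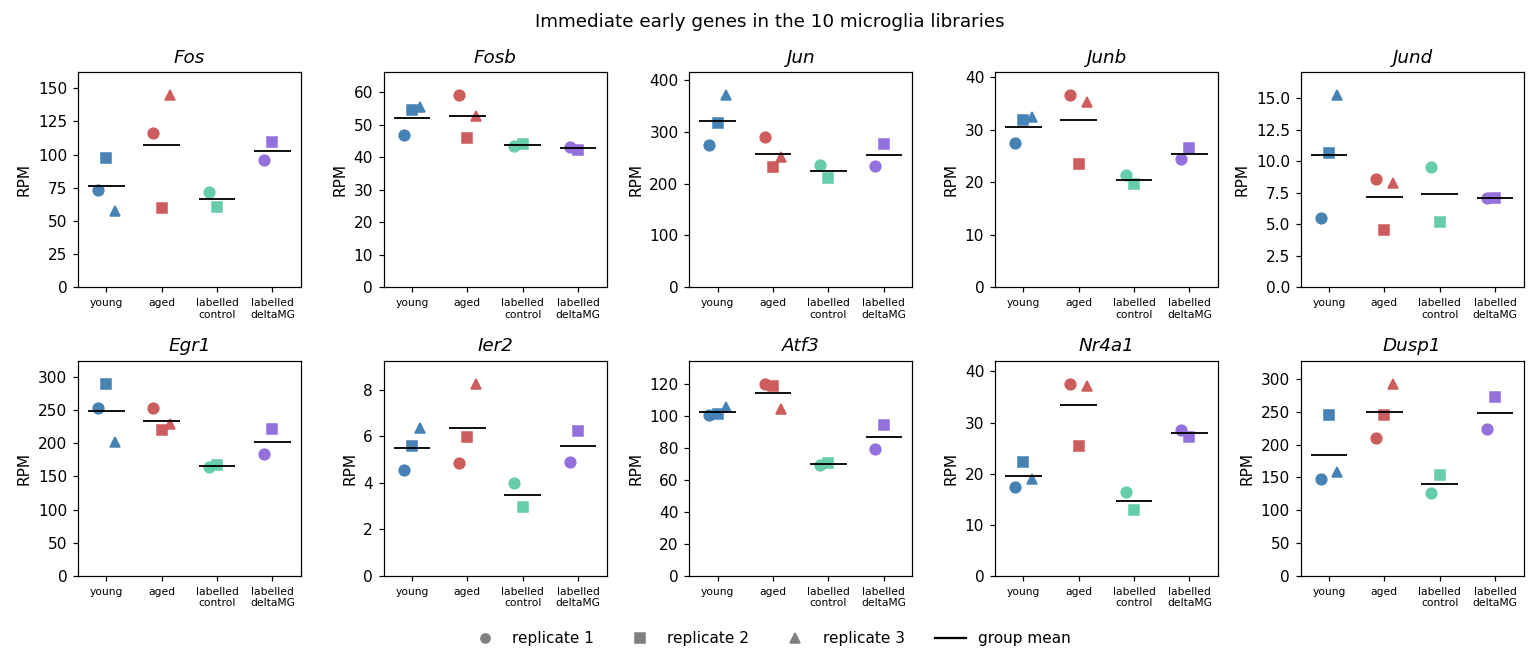
RPM of each of the 10 genes in each library, by group, with the marker shape giving the replicate number and a black line at the group mean; each panel starts at 0. Nr4a1 in the 3 aged libraries (25.3 to 37.6) lies above all 3 young libraries (17.3 to 22.3), and most panels have their lowest mean in the libraries labelled control.

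No member of the Jun family passed the test with age. Jun, the main partner of Fos in AP-1, was at 290, 231 and 251 RPM in aged replicates 1 to 3 and at 274, 317 and 371 RPM in young replicates 1 to 3. The groups overlapped, with aged replicate 1 above young replicate 1. Its log2 fold change of -0.31 (95% interval -0.60 to -0.021) had an unadjusted p of 0.0371 and a limma adjusted p of 0.195. Jund, the family member usually described as constitutive, had a mean of 7.14 RPM ± 2.26 (SD, n = 3) in aged and 10.5 RPM ± 4.87 (SD, n = 3) in young libraries, with single values from 4.54 to 15.3 RPM over both groups (limma adjusted p = 0.490). Junb, which often opposes Jun in AP-1 dimers, was at 31.8 RPM ± 7.23 in aged and 30.6 RPM ± 2.80 in young libraries (SD, n = 3 each), and its log2 fold change, 0.031, had a 95% interval from -0.33 to 0.39.

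The remaining members overlapped between ages. Fosb, at 52.7 RPM ± 6.65 in aged and 52.3 RPM ± 4.75 in young libraries (SD, n = 3 each), had a log2 fold change of 0.0068 (95% interval -0.27 to 0.28). For Egr1 (ENSMUSG00000038418.7) the means were 234 RPM ± 17.0 and 248 RPM ± 44.0 (SD, n = 3 each), and the 95% interval of the log2 fold change, -0.072, ran from -0.36 to 0.22. Atf3 was at 114 RPM ± 8.87 and 103 RPM ± 2.89 (SD, n = 3 each), and was the steadiest member, with a smaller residual SD than all but 4.70% of tested genes. Ier2 was at 6.36 RPM ± 1.73 in aged and 5.49 RPM ± 0.884 in young libraries (SD, n = 3 each). Aged replicate 1 (4.86 RPM) and aged replicate 2 (5.96 RPM) lay within the young range (4.57 to 6.33 RPM), and aged replicate 3 (8.25 RPM) lay above it. The median log2 fold change of the 9 tested members was 0.031, beside -0.048 over the 4151 tested genes, and it was -0.080 without aged replicate 1 and -0.044 without young replicate 1. Of the 9 tested members, 6 had a fold change above 0, against 42.8% of tested genes. The ranges of 1 member (Nr4a1) did not overlap with the aged libraries higher, and of none with them lower, where 8.41% and 15.5% of tested genes did so.

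In the libraries labelled deltaMG, Nr4a1 was again higher than in those labelled control. It was at 28.6 and 27.2 RPM in the libraries labelled deltaMG and at 16.3 and 12.974 RPM in those labelled control, without overlap. The means were 27.9 RPM ± 0.959 (SD, n = 2) and 14.7 RPM ± 2.38 (SD, n = 2), a 1.85-fold rise (log2 fold change 0.89, SE 0.21, limma adjusted p = 0.0337). The call was lost without deltaMG replicate 1 (adjusted p = 0.201), deltaMG replicate 2 (0.115), control replicate 1 (0.111) or control replicate 2 (0.229), with no minimum level (0.113) and with voom on estimated reads (0.0551). Nr4a1 was the 1 member called of 9 tested, against 1.2% of tested genes called higher. No member was called lower, against 2.58%, none of the 9 was lower at an unadjusted p under 0.05, and voom called none in either direction. At that unadjusted level 3 of 9 differed in either direction, against 18.8% of tested genes.

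Dusp1 came next in size. It stood at 224 and 273 RPM in libraries labelled deltaMG and at 126 and 154 RPM in those labelled control. The groups lay apart, with means of 248 RPM ± 34.5 and 140 RPM ± 19.2 (SD, n = 2 each). The log2 fold change was 0.82 (SE 0.22, 95% interval 0.35 to 1.30), and it missed the threshold (limma adjusted p = 0.0533). It passed with median-of-ratios scaling (0.0348), with quantile normalization (0.0451) and with the 2 groups fitted alone (2.78e-05), and without aged replicate 2 (0.0425), aged replicate 3 (0.0183) or young replicate 2 (0.0219). It did not pass without any 1 of its own 4 libraries (adjusted p = 0.134 to 0.392), with no minimum level (0.220) or with voom (0.0681). The gene (ENSMUSG00000024190.7) lies on chromosome 17, 26505590 to 26562128, minus strand, GRCm38. Fos was at 95.7 and 109 RPM in the libraries labelled deltaMG and at 71.9 and 60.5 RPM in those labelled control. Here, too, the groups were apart, at a log2 fold change of 0.62 (95% interval -0.046 to 1.29, limma adjusted p = 0.305), with an adjusted p of 0.00426 when the 2 groups were fitted alone. With 4 libraries, that fit took its spread mostly from other genes, and it called 510 genes against 157 in the reported fit. Its p-values for Dusp1 and Fos therefore say little on the spread of these genes in their own libraries.

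Atf3, Egr1 and Junb had smaller differences, and none of them passed the test. Atf3 was at 79.6 and 94.5 RPM in the libraries labelled deltaMG and at 69.2 and 70.4 RPM in those labelled control (log2 fold change 0.31, limma adjusted p = 0.256). For Egr1 the values were 183 and 221 RPM against 164 and 167 RPM (0.28, limma adjusted p = 0.407), and for Junb 24.4 and 26.5 RPM against 21.4 and 19.6 RPM (0.30, limma adjusted p = 0.482). In each of these 3 genes both libraries labelled deltaMG lay above both labelled control. Ier2 did the same at 4.90 and 6.22 RPM against 4.01 and 2.96 RPM. Jun overlapped, at 234 and 277 RPM against 237 and 212 RPM (log2 fold change 0.19, limma adjusted p = 0.614).

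Fosb and Jund did not share this order. Fosb was at 43.1 and 42.4 RPM in the libraries labelled deltaMG and at 43.5 and 44.1 RPM in those labelled control, a log2 fold change of -0.035 (95% interval -0.38 to 0.30). That is a separation of ranges within a spread of under 2 RPM. Jund was at 7.05 and 7.09 RPM against 9.51 and 5.22 RPM. In all, 6 of the 9 tested members, and Ier2 besides, had both libraries labelled deltaMG above both labelled control, where 25.2% of tested genes did. The range of 1, Fosb, lay below, where 26.6% of tested genes did. Of the 9, 7 had a fold change above 0, against 48% of tested genes, and the median over the 9 was 0.30 beside -0.016 over the tested genes. Groups of 2 give little precision, and the members are not independent of one another.

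**Figure D3:**
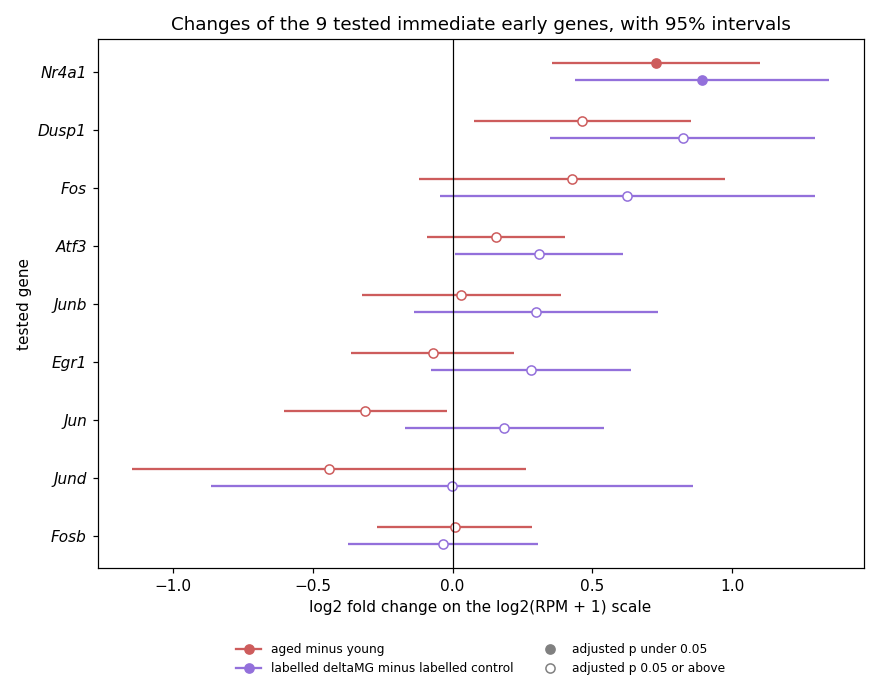
Log2 fold change of the 9 tested genes on the log2(RPM + 1) scale, aged minus young (red) and labelled deltaMG minus labelled control (purple); bars are 95% intervals and filled points passed an adjusted p under 0.05. Nr4a1 is the gene with filled points, at 0.73 and 0.89, and Jun has its points on opposite sides of 0.

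Set against all 4 groups, the libraries labelled control had the lowest mean levels of most members. Of the 10 members, 8 had their lowest group mean there, and the other 2, Fosb and Jund, in those labelled deltaMG. The aged group held the highest mean of 7 members and the young group that of 3, Jun, Jund and Egr1. The shares of all tested genes with their lowest or highest mean in these groups were not computed. These counts therefore cannot be called particular to the members. Means of Nr4a1 in RPM were 14.7 in libraries labelled control, 19.5 in young, 27.9 in those labelled deltaMG and 33.4 in aged libraries. Those of Dusp1 were 140, 184, 248 and 249 RPM in the same order, but the young range (148 to 245 RPM) overlapped those of all 3 other groups, and the aged range overlapped that of the libraries labelled deltaMG. For Nr4a1 the aged range contained that of the libraries labelled deltaMG. No test was made between groups of the 2 experiments. The difference between the 2 effects was tested within the limma fit, and no member passed (1 had an unadjusted p under 0.05), against 4.79% of tested genes in either direction. Jun had the largest, 0.50 on the log2 scale (95% interval 0.038 to 0.96, unadjusted p = 0.0359, limma adjusted p = 0.228). For Nr4a1 the difference was 0.16 (95% interval -0.42 to 0.75).

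Some libraries were the highest or lowest of their group in most members. Aged replicate 1 was the highest of its group in 7 of the 10 members and aged replicate 2 the lowest in 7. Young replicate 1 was the lowest of its group in 8, and the library labelled deltaMG replicate 2 the higher of its pair in 8. The matching shares of all tested genes were not computed, so these counts cannot be called particular to the members. By label, the median log2 fold change of all tested genes was 0.057 without deltaMG replicate 1 and -0.086 without deltaMG replicate 2. The tested genes as a whole were thus also higher in deltaMG replicate 2. The mean of the 10 members, each centred on its own average on the log2 scale, ran from -0.45 in control replicate 2 to 0.33 in aged replicate 3. Among 4027 tested genes outside all lists, those most like this mean over the 10 libraries were Whsc1l1 (Pearson r = 0.94), Cited2 (0.89), Far1 (0.88), D930015E06Rik (0.87) and Slfn5 (0.87). After centring within groups r was 0.89, 0.74, 0.81, 0.79 and 0.90. These are the highest of many values, and the libraries share depth and cell mix, so they are a description.

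Neutrophil markers moved with some of the members. Their 11 genes, S100a8, S100a9 and Cxcr2 among them, summed to 1624, 940 and 4152 RPM in aged replicates 1 to 3 and to 960, 1386 and 542 RPM in young replicates 1 to 3. They summed to 1764 and 1148 RPM in the libraries labelled deltaMG and to 676 and 449 RPM in those labelled control. Of the 11, 10 were tested, and Cxcr2 rose in both comparisons. Of all tested genes, 3.16% were called higher by age and 1.2% by label. At an unadjusted p under 0.05, 6 of the 10 were higher by age and 9 by label, and none was lower. In either direction 21.5% and 18.8% of tested genes reached that level. In the aged, young and control groups the order of Fos was that of the neutrophil sum, aged replicate 3 being highest in both. In the pair labelled deltaMG the order was the reverse, with Fos at 95.7 and 109 RPM. In bulk RNA, more cells of a type and more RNA per cell cannot be told apart. With the mean log2 level of the neutrophil markers as a covariate, the Fos log2 fold change was -0.069 for age and -0.13 for the label (limma adjusted p = 0.879 and 0.826). That of Nr4a1 kept its sign, at 0.52 and 0.58, and lost both calls (limma adjusted p = 0.117 and 0.199). Dusp1 was at 0.31 and 0.59 (limma adjusted p = 0.380 and 0.162). Monocyte markers summed to 126 to 365 RPM in aged, 46.1 to 75.6 in young, 81.0 to 115 in labelled deltaMG and 35.3 to 46.6 RPM in labelled control libraries; 4 of the 5 tested rose with age and none by label, where 4 were higher at an unadjusted p under 0.05 and voom called none. Of the 10 microglial markers, 6 fell with age (median log2 fold change -0.55), against 2.99% of tested genes called lower, and Cx3cr1 rose by label. The part of monocytes or of the microglial share in the members' values was not tested.

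**Figure D4:**
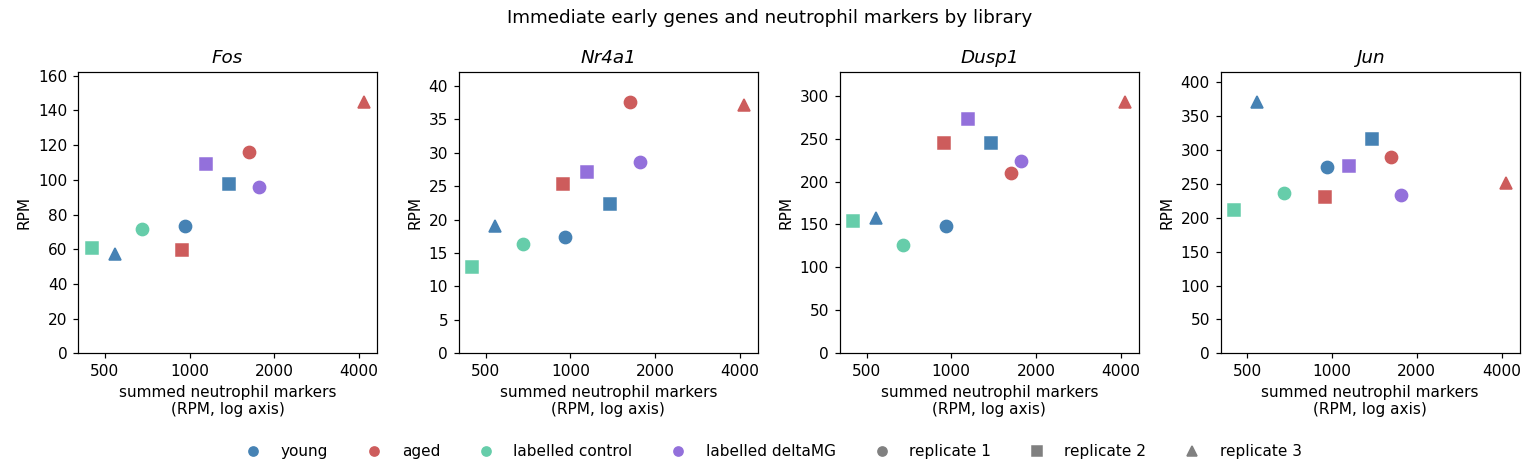
RPM of Fos, Nr4a1, Dusp1 and Jun against the summed RPM of 11 neutrophil markers (log axis), 1 point per library, with colour giving the group and shape the replicate. Aged replicate 3 has the highest neutrophil sum (4152) and the highest Fos (145), while Jun is highest in young replicate 3, where the neutrophil sum is 542.

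Other immediate early regulators were read from a list of 44 genes, of which 25 were tested. For this list and those that follow, the shares of all tested genes called higher and lower were 3.16% and 2.99% by age. By label they were 1.2% and 2.58%. In aged libraries 2 rose and 1 fell, with a median log2 fold change of 0.17. Mcl1, an anti-apoptotic factor, rose 1.51-fold (limma adjusted p = 0.0101) and the repressor Nfil3 rose 2.27-fold (limma adjusted p = 0.0147). The kinase gene Sgk1 fell 1.55-fold (limma adjusted p = 0.0367). In the libraries labelled deltaMG 3 rose and none fell, with none lower at an unadjusted p under 0.05 or by voom, and the median was 0.34. These were Zfp36l1, which destabilizes AU-rich mRNAs, at 1.69-fold, the prostaglandin synthase Ptgs2 at 2.82-fold and Mcl1 at 1.48-fold (limma adjusted p = 0.0314, 0.0449 and 0.0472). Mcl1 was at 279, 268 and 349 RPM in aged libraries against 188, 204 and 197 RPM in young, and at 278 and 287 RPM in those labelled deltaMG against 197 and 185 RPM in those labelled control. Its groups lay apart in both comparisons, as did those of the listed genes Nfil3 and Fosl2 and of the member Nr4a1. Ranges lay apart upward in 8.41% of tested genes by age and in 25.2% by label. The share with both was not computed, so this cannot be called particular to these genes. Fosl2, another Fos family gene, was at 43.7 RPM ± 20.7 in aged and 21.9 RPM ± 7.90 in young libraries (SD, n = 3 each, limma adjusted p = 0.0733). By label it was at 47.2 RPM ± 7.42 in deltaMG and 21.9 RPM ± 4.39 in control libraries (SD, n = 2 each) and was not called.

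Upstream and feedback genes of the response were read from further lists. Among kinases and resident factors of the inducing cascade, 21 of 31 were tested; Mef2c, a factor that sustains microglial identity, fell 1.39-fold in aged libraries (limma adjusted p = 0.0353). None was called in the libraries labelled deltaMG, where 2 were higher at an unadjusted p under 0.05 and voom called none. Of 14 MAP kinase feedback genes 4 were tested and none was called in either comparison; Dusp6, a phosphatase for ERK, was lower in aged libraries at an unadjusted p of 0.00488 (limma adjusted p = 0.0644), none differed at that level by label, and voom called none. Of 13 leucine zipper partners 9 were tested, and Bach2, a repressor at AP-1-like sites, fell 1.55-fold with age (limma adjusted p = 0.0221). By label none of them was called, 1 was lower at an unadjusted p under 0.05, and voom called none.

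Genes known to respond to tissue dissociation were read beside the members from a list of 24 without the 10, assembled from general knowledge. Their sum was 2933 to 3692 RPM in aged, 2404 to 2912 in young, 2874 to 3100 in labelled deltaMG and 2003 to 2205 RPM in labelled control libraries, so that the libraries labelled control were lowest here as well. Of 21 tested, 3 rose with age (Ccl3, Mcl1 and Cxcl2) and those that rose in the libraries labelled deltaMG included Hspa1a, Hspa1b, Dnajb1 and Mcl1, with median log2 fold changes of 0.35 and 0.30. Heat shock genes, 13 of 15 tested, gave 1 rise with age, Dnaja1 at 1.62-fold, and 3 by label, Hspa1a at 2.25-fold, Hspa1b at 2.36-fold and Dnajb1 at 1.73-fold. Hspa1a, an inducible chaperone, was at 273 and 362 RPM in the libraries labelled deltaMG and at 136 and 143 RPM in those labelled control. NF-kB response genes, 13 of 18 tested, gave 4 rises with age (Tnf, Il1b, Ccl3 and Cxcl2) and 1 by label (Il1b), with medians of 0.45 and 0.028. Of all tested genes, 3.16% were called higher by age and 1.2% by label. By label, 2 of the 13 were higher and 1, Tnf, lower at an unadjusted p under 0.05. The log2 fold change of Tnf was -0.70 there (limma adjusted p = 0.117). These lists overlap one another, Hspa1a and Hspa1b are near-identical copies whose reads may be split, and the part of isolation in any of these values was not tested.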

How the data were processed

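The authors deposited 1 table of RPM (reads scaled to a common total) per gene symbol for 10 libraries of amplified total RNA. FastQC and the builds GRCm38 and mm10 are named in the submitters' processing notes. No aligner, counter or strand setting is given in the sources used here. The unit was read from the values: each library's low values lie near multiples of 1 step, but not closely enough to recover whole reads, so no count model was used as the main test. All 24453 gene symbols of the deposited values together hold 18.7% to 23.5% of the reads behind the scaling.

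limma 3.58.1 in R 4.3.3 was run on log2(RPM + 1), which understates changes of low genes. The 4 groups shared 1 spread, and genes had to reach 10 RPM in 2 or more libraries. A Benjamini-Hochberg adjusted p under 0.05 was a call. The procedure was tested on simulated data. Alternatives are given in the closing section. The members and gene lists were chosen with earlier results of these data known. All 10 members are described, with, from each list, genes called in either comparison and up to 4 more by smallest p. One result of a listed gene is not reported here.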

Additional observations from a re-analysis of the deposited data

How the results depend on the processing

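Nr4a1 kept its direction in both comparisons under each alternative, from 0.63 to 0.91 (aged minus young) and from 0.73 to 1.05 (deltaMG minus control) on the log2 scale when single libraries were left out; its calls did not all hold, as given with its values. With 1 library left out, 0 to 2 members were called in either comparison, and 96 to 422 genes (255 in the reported fit) by age and 25 to 317 (157) by label. Fos by age was called without aged replicate 2, and Dusp1 without young replicate 2. By age, 0 members and 142 genes were called with no minimum, 0 and 116 with 50 RPM in 3 libraries (Nr4a1 was then not tested), 0 and 121 with own groups only, 0 and 162 with the neutrophil covariate, 0 and 125 with that covariate and without aged replicate 3 (chosen after seeing the data), and 138 genes with voom. By label, 0 members were called with no minimum (99 genes), with 50 RPM in 3 libraries (62 genes), with the covariate, with voom, and with the covariate without aged replicate 3 (70 genes). Own groups only gave 3 members and 510 genes, and median-of-ratios scaling and quantile normalization 2 members each. The split of higher and lower calls was 131 and 124 by age and 50 and 107 by label; median-of-ratios scaling gave 217 and 128, and 95 and 136, and quantile normalization 175 and 113, and 81 and 107.

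Same-numbered aged and young libraries did not deviate together (r -0.137, -0.244 and -0.392), so their numbers were not taken as pairs. For deltaMG and control (r 0.116) the check cannot decide. With 2 libraries in a group, their deviations from the group mean are exact opposites, so r could only be 0.116 or -0.116. With the replicate number as a block, 0 members were called in each comparison, and 66 and 69 genes.

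Several members changed sign, among them Fos, at 0.43 by age and 0.62 by label in the reported fit, and Egr1, at 0.28 by label. By age, Egr1 was at 0.028 with quantile normalization, Fosb at -0.022 and Junb at -0.014 with voom. The covariate gave Fos -0.069, Fosb -0.024 and Junb -0.10, and without aged replicate 3 as well -0.066, -0.022 and -0.10. By label, Jund was at 0.00059 with a pseudocount of 0.5, 0.014 with median-of-ratios scaling, 0.0012 with quantile normalization and 0.011 with voom, and Fosb at 0.0018 with quantile normalization. The covariate gave Fos -0.13, and without aged replicate 3 Fos -0.20 and Egr1 -0.052. Leaving out single libraries spanned -0.080 to 0.10 for Fosb, -0.081 to 0.23 for Junb, -0.21 to 0.047 for Egr1 by age, and -0.38 to 0.38 for Jund by label. The cause of these changes was not tested. Depth limits Ier2 and Jund most, at 21 to 65 and 35 to 106 estimated reads per library.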
